A study of Homo sapiens with 6 samples.

Results

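The RNAs described here are the 429 expressed antisense noncoding RNAs of TPC-1 cells, out of 58735 annotated genes. They were chosen by their annotation and level, as genes of the biotype antisense with a mean of at least 1 FPKM (fragments counted on a gene, divided by its exon length and by the depth of the library) over the 6 libraries. Of 5583 annotated antisense genes, 3426 had a value above 0 in at least 1 library and 433 reached that mean. The 4 that are hosts of small nucleolar RNAs (*ZFAS1*, *SNHG7*, *SNHG10* and *SNHG12*) were left out by name. Because the level chose the members, levels are given below as a description, without a test.

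The cells are TPC-1, an established line from a human papillary thyroid carcinoma, sequenced in bulk. The study compared 3 libraries of wild strain TPC-1 cells, which had not been transduced, with 3 libraries of *RRM2*-OE-TPC-1 cells, stated to be biological triplicates. The latter carried a lentivirus in which a CMV promoter drives *RRM2*, the gene of the small subunit of ribonucleotide reductase, and had been selected with puromycin. No library of cells with an empty vector was analysed here, so *RRM2*, the virus and the selection cannot be told apart. The genotype labels of *RRM2*-OE-TPC-1 replicates 2 and 3 read RRM3 and RRM4, whereas their titles read *RRM2*. *RRM2* itself rose from 8.92 ± 0.346 FPKM to 48.4 ± 1.78 FPKM (SD, n = 3 each), and the libraries of both groups stood apart for it as their titles say. Of the thyroid markers, *PAX8* stood at 56.3 to 70.8 FPKM, and *FOXE1* at 4.21 to 4.41 FPKM in TPC-1 and 3.1 to 3.26 FPKM in *RRM2*-OE-TPC-1, while *TG*, *TSHR*, *SLC5A5* and *NKX2-1* stood at 0.113 FPKM or less in every library. The epithelial marker *KRT18* stood at 39.4 to 43.0 FPKM in TPC-1 and 83.7 to 85.9 FPKM in *RRM2*-OE-TPC-1, and *KRT8* at 2.32 to 2.75 FPKM and 3.38 to 3.60 FPKM. The epithelial markers *KRT19*, *EPCAM* and *CDH1* stood at 0.125 FPKM or less in every library. Of markers of other cells, *CD3E*, *COL3A1* and *DCN* were listed at 0 in all 6 libraries, *PTPRC* and *VWF* stood at 0.04 FPKM or less and *COL1A1* at 0.409 to 0.866 FPKM. The monocyte marker *CD14* was at 0.35 to 0.41 FPKM in TPC-1 and 0.0998 to 0.183 FPKM in *RRM2*-OE-TPC-1, and the endothelial marker *PECAM1* at 0.857 to 1.04 FPKM and 0.0268 to 0.0971 FPKM. Reads on genes numbered 14317091 to 17084067 per library.

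An antisense RNA is transcribed from the strand opposite a gene, so that the genes overlap in part or in full. In a head to head pair the starts lie within or close to each other and transcription runs apart, in a tail to tail pair the ends overlap, and other antisense RNAs lie wholly inside the gene opposite. Many such RNAs are spliced, poorly translated, kept in the nucleus and broken down by the RNA exosome. Single members are known to act on the gene opposite, on chromatin or as binding partners of microRNAs, but for most no function is known.

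The table showed how reads of overlapping genes had been counted, and this bears on each value below. Of 710 genes whose exons lay wholly inside exons of opposite-strand genes, with no base shared on their own strand, 710 were at 0 in all 6 libraries. For genes wholly inside exons of same-strand genes the number was 966 of 1008 (95.8%), and for genes with no shared exon base it was 22564 of 41758 (54.0%). Among antisense genes, 324 of 324 with wholly covered exons were at 0, against 994 of 2374 (41.9%) with no shared exon base. *AC006064.4*, for example, was at 0 opposite *GAPDH*, which had a mean of 835 FPKM, and *DDIT4-AS1* was at 0 opposite *DDIT4*, with a mean of 163 FPKM. That is what a count gives that ignores strand and leaves out reads on exons of more than 1 gene. The kit keeps strand, but the strand setting of the count is not given in the sources used here. In these values, therefore, reads of an antisense RNA and reads of the opposite strand on the same bases cannot be told apart, and those include unspliced RNA of a gene in whose intron the antisense exon lies. Shared exon bases add no reads but still count in the length, so that FPKM understates members with shared exons.

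**Figure D1:**
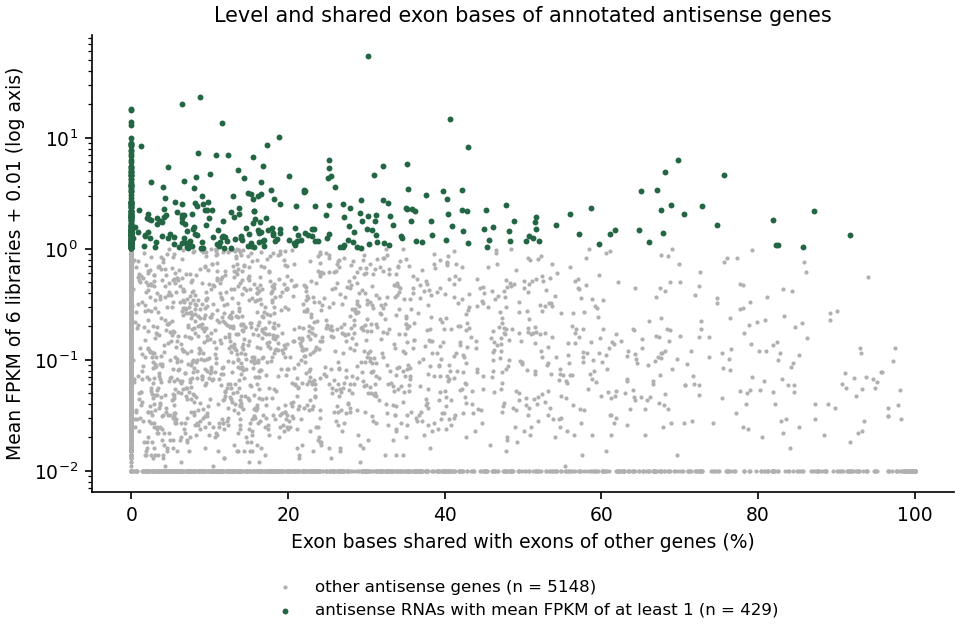
Each point is an annotated antisense gene, with the share of its exon bases that lie in exons of other genes (x axis, %) and its mean FPKM over 6 libraries plus 0.01 (y axis, log scale). The green points are the 429 members, of which the one with most shared bases had 91.8%; at the right edge, genes with every exon base inside opposite-strand exons lie on the bottom line, at 0.

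Of the 429 members, 266 shared exon bases with an opposite-strand gene, with a median of 17.9% of their exon bases, 28 with a same-strand gene, and 158 with none. The smallest number of unshared exon bases was 24. Most members were present at low levels. Their median mean FPKM was 1.64, 259 lay between 1 and 2 FPKM, and 10 reached 10 FPKM or more. The median member rested on 201 reads over all 6 libraries.

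The highest member was *AC099850.3*, a 2-exon RNA inside *PRR11*, a gene of cell cycle progression. It stood at 41.1, 49.8 and 42.4 FPKM in TPC-1 and at 66.2, 68.2 and 63.4 FPKM in *RRM2*-OE-TPC-1. The groups did not overlap, and the log2 fold change was 0.57 (SE 0.0707). *PRR11* stood at 18.7, 20.2 and 19.7 FPKM and at 31.5, 31.0 and 31.4 FPKM, a log2 fold change of 0.68. *KCCAT198*, inside *C12orf75*, followed with 16.8, 13.6 and 12.2 FPKM in TPC-1 and 29, 30.3 and 38.9 FPKM in *RRM2*-OE-TPC-1. It rose in all 3 libraries above every TPC-1 library (log2 fold change 1.20, SE 0.137, limma adjusted p = 0.000103). *FGD5-AS1*, the most studied of the 5 highest members, is a spliced RNA with 9 exon blocks that is known to bind microRNAs. Its values were 20.8, 21.0 and 22.0 FPKM in TPC-1 against 19.3, 18.5 and 19.5 FPKM, a log2 fold change of -0.15, while *FGD5*, the gene after which it is named, was listed at 0 in all 6 libraries. *WNT5A-AS1* stood at 17.6 to 23.5 FPKM and 15.8 to 18.2 FPKM, and *AC005288.1*, opposite the Mediator subunit gene *MED1*, at 15.6 to 19.4 FPKM and 17.3 to 18.8 FPKM. In both, the groups overlapped.

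At the other end of the range, the 3 members nearest to the threshold were *AL354726.1*, *AC018695.4* and *AL137003.1*, and the antisense genes just under it were *AC005041.3*, *AC004889.1* and *U62317.2*, with means of 0.999, 0.994 and 0.994 FPKM.

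The 3′ ends of 7 members are printed because their reads were counted for no other annotated gene: each lies in 1 exon of the longest GENCODE 29 transcript and shares no base with an exon of another gene. They hold the last 120 bases, 5′ to 3′, with coordinates on GRCh38. Capitals mark the polyadenylation signals AATAAA and ATTAAA. The first 3 members stand out by level, the next 2 fell, and the last 2 moved otherwise than the gene opposite.
AC099850.3, chr17:59202677-59202796, minus strand: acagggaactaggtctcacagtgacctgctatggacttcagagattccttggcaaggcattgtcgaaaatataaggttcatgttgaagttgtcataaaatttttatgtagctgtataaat
KCCAT198, chr12:105304867-105304986, minus strand: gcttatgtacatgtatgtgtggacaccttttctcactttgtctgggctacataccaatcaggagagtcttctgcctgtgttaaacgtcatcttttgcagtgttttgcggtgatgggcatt
FGD5-AS1, chr3:14942784-14942903, minus strand: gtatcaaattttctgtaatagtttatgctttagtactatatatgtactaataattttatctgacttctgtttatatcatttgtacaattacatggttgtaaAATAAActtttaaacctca
AL451069.3, chr10:132433733-132433852, minus strand: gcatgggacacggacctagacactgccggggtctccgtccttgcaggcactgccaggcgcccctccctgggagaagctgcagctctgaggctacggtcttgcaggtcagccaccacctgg
AC116614.1, chr2:949627-949746, minus strand: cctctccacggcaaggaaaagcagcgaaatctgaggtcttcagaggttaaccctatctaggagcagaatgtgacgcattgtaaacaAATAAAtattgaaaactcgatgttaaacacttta
AC027312.1, chr5:170639158-170639277, minus strand: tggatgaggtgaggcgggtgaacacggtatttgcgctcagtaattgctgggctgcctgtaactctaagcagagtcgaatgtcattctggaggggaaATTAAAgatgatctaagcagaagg
AL606489.1, chr1:204435727-204435846, plus strand: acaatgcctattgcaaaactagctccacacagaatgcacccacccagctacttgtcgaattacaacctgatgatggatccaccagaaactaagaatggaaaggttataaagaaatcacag
A signal lay in the last 50 bases in *FGD5-AS1*, *AC116614.1* and *AC027312.1*. Over all members, 204 of 429 longest transcripts (47.6%) held 1 of these signals there, close to the 1339 of 2991 (44.8%) of antisense genes with lower levels above 0. For protein-coding genes with a mean FPKM of at least 1 the share was 77.9% (8214 of 10545). Annotated ends of noncoding transcripts are often incomplete, so a missing signal says only that these letters are not in the window.

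Of the 429 members, 382 passed a filter of at least 0.5 FPKM and 10 reads in at least 3 libraries and were tested with limma on log2(FPKM + 0.1) among 13621 genes. Adding 0.1 FPKM shrinks the fold changes of genes with low values. The 47 members not tested were short (median 364 exon bases, against 992 for those tested) and had at most 20 reads in any library.

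Against wild strain TPC-1, 74 of 382 tested members (19.4%) passed an adjusted p of 0.05 with an absolute log2 fold change of at least 1, and 53 of the 74 fell. Over all tested genes 11.5% passed. In the upward direction the members' share was 5.50% (21) beside 4.48% of all genes, and in the downward direction 13.9% (53) beside 6.97%. The median log2 fold change of tested members was -0.23 (quartiles -0.70 and 0.20), and that of all tested genes was 0.011 (quartiles -0.37 and 0.36). With 1 FPKM added in place of 0.1, 29 members and 5.26% of all genes were called. By adjusted p alone, 202 members passed (52.9%), beside 67.6% of all genes, and 200 (52.4%) had groups that did not overlap, beside 72.2%. The median SE was 0.176 for members and 0.0749 for all genes. In 86 tested members 1 group mean lay under 1 FPKM, and 38 of the 74 called members were among them. In all, 22 members passed the filter in 1 group only, and 21 of these were called, which the filter itself favours. Such members are among those named below, and not every one is marked there.

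**Figure D2:**
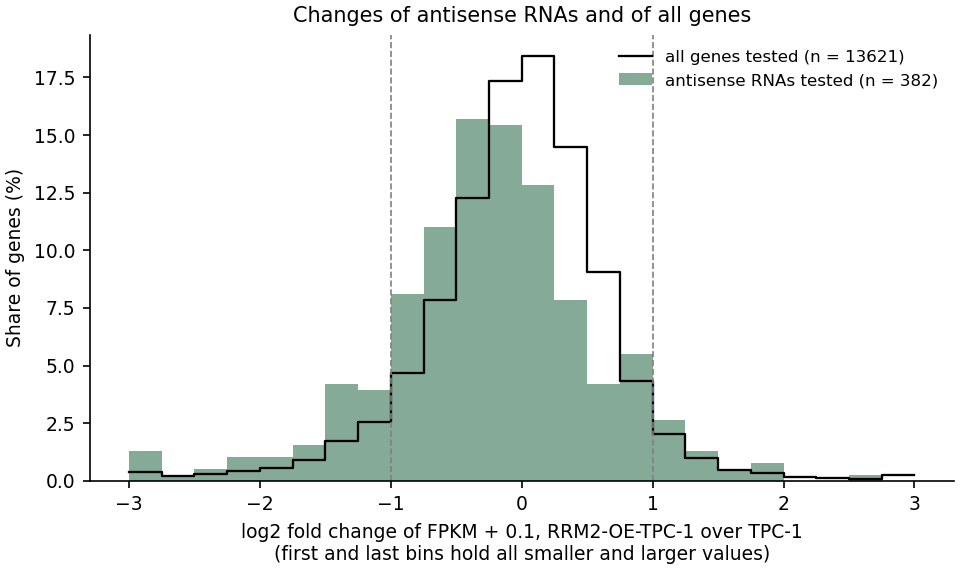
The share of genes (y axis, %) in each bin of log2 fold change of FPKM + 0.1, *RRM2*-OE-TPC-1 over TPC-1 (x axis), for 382 tested antisense RNAs (green bars) and 13621 tested genes (black line). The dashed lines mark -1 and 1, and the medians were -0.23 and 0.011. The green bars exceed the black line in each bin below -0.25 and also in each bin from 0.75 to 2.

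Other groups of genes at like levels are given for scale. Of 3737 tested protein-coding genes with mean FPKM from 1 to 5, 12.1% were called, and of 341 members in that range 19.6%. Of 275 tested lincRNA genes with a mean of at least 1 FPKM, 21.1% were called (58, of which 37 lower), with a median of -0.21. Tested antisense genes under 1 FPKM gave 51 called of 224 (22.8%, 41 lower), with a median of -0.22. Members without any shared exon base gave 31 called of 129 (24.0%, 22 lower) and those with some shared bases 43 of 253 (17%, 31 lower), with medians of -0.23 and -0.22. Members with 0.5 or more of their exon bases shared, which are among the latter, gave 9 called of 26 (34.6%, 7 lower). None of these differences between groups of genes was tested.

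Of the 4 largest falls, 3 were of members with no protein-coding gene opposite. Their order depends on the pseudocount: with 1 FPKM added, *AC148477.1* was at -1.79, behind *AP003064.2* at -2.41, and with 0.01 FPKM added it was at -6.52. *AL451069.3*, a 2-exon RNA on chromosome 10, stood at 10.7, 8.75 and 7.68 FPKM in TPC-1 and at 0, 0.231 and 0.186 FPKM in *RRM2*-OE-TPC-1, from 454 and 7 reads. The log2 fold change was -5.42 (SE 0.411, limma adjusted p = 1e-05). *AC148477.1* went from 1.89, 3.12 and 3.30 FPKM to 0, 0.245 and 0 FPKM (-4.21), on 65 and 2 reads. With so few reads in *RRM2*-OE-TPC-1, *AL451069.3* and *AC148477.1* passed the filter through TPC-1 only, which favours a call. *AC116614.1* went from 7.67, 9.27 and 7.92 FPKM to 0.513, 1.08 and 1.4 FPKM (-3.02). None of the 3 shares an exon base with another gene. In each, every *RRM2*-OE-TPC-1 library lay under every TPC-1 library, which the rule for naming them required.

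*AC104958.2*, head to head with the syntrophin gene *SNTB1*, fell with that gene by 3.15 and 2.19 on the log2 scale. It shares 38.3% of its exon bases with *SNTB1*. *AP003064.2*, tail to tail with the secretoglobin gene *SCGB1A1*, went from 17.3, 19.5 and 17 FPKM to 3.12, 2.40 and 2.22 FPKM. It fell by 2.76 on the log2 scale and *SCGB1A1* by 1.69. *AC008105.3* fell by 2.32 on that scale head to head with the formin gene *FMNL1* (-1.14). The other members among the 10 largest falls were *FLJ46906*, *AP001542.3*, *AL122035.1* and *AC006449.2*, between -2.64 and -2.20. Some of these falls, that of *FLJ46906* among them, passed the filter through TPC-1 only, which favours a call. Of the exon bases of *AC006449.2*, 57.2% are shared with other genes. Without *RRM2*-OE-TPC-1 replicate 2, *AP001542.3* went from -2.32 to -1.5.

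The largest rise was that of *AC025423.1*, at 0, 0.795 and 0.336 FPKM in TPC-1 and at 2.22, 1.87 and 1.68 FPKM in *RRM2*-OE-TPC-1. It rests on 7 and 34 reads, with a log2 fold change of 2.57 (SE 0.679, limma adjusted p = 0.00998). With so few reads in TPC-1, *AC025423.1* passed the filter through *RRM2*-OE-TPC-1 only, which favours a call. It was therefore selected partly for being high there. Without TPC-1 replicate 1, where it was at 0, the log2 fold change was 1.69, below those of *PRR34-AS1* and *FLJ45513* in the same fit (1.71 each). It lies at chr12:68828118-68828553 on the plus strand, inside *MDM2* on the same strand, with no exon base in common. *MDM2*, the gene of the ubiquitin ligase of p53, stood at 6.2, 6.94 and 6.79 FPKM and at 31.5, 28.8 and 30.4 FPKM, a log2 fold change of 2.17. Reads of unspliced *MDM2* RNA and of *AC025423.1* cannot be told apart there. In all, 15 members lay inside a same-strand protein-coding gene, and in 5 of 12 such pairs with both genes tested the signs were the same.

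*PRR34-AS1* went from 1.1, 0.870 and 1.03 FPKM to 3.67, 3.36 and 2.99 FPKM (log2 fold change 1.65, SE 0.120), while *PRR34*, head to head with it, stood at 0.251 and 0.236 FPKM on average and was not tested. *LINC01594* stood at 0.686, 1.07 and 0.103 FPKM and at 1.36, 1.53 and 2.16 FPKM (log2 fold change 1.61, limma adjusted p = 0.0353). Leaving out TPC-1 replicate 3 (0.87) or any 1 of the *RRM2*-OE-TPC-1 replicates (1.75, 1.67 and 1.43) ended this call. *AP001453.2*, *AL590133.1*, *AP001363.1* and *AP000695.1* rose by 1.81, 1.42, 1.39 and 1.38 on the log2 scale. Of the exon bases of *AP001453.2*, 61.1% are shared with other genes.

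**Figure D3:**
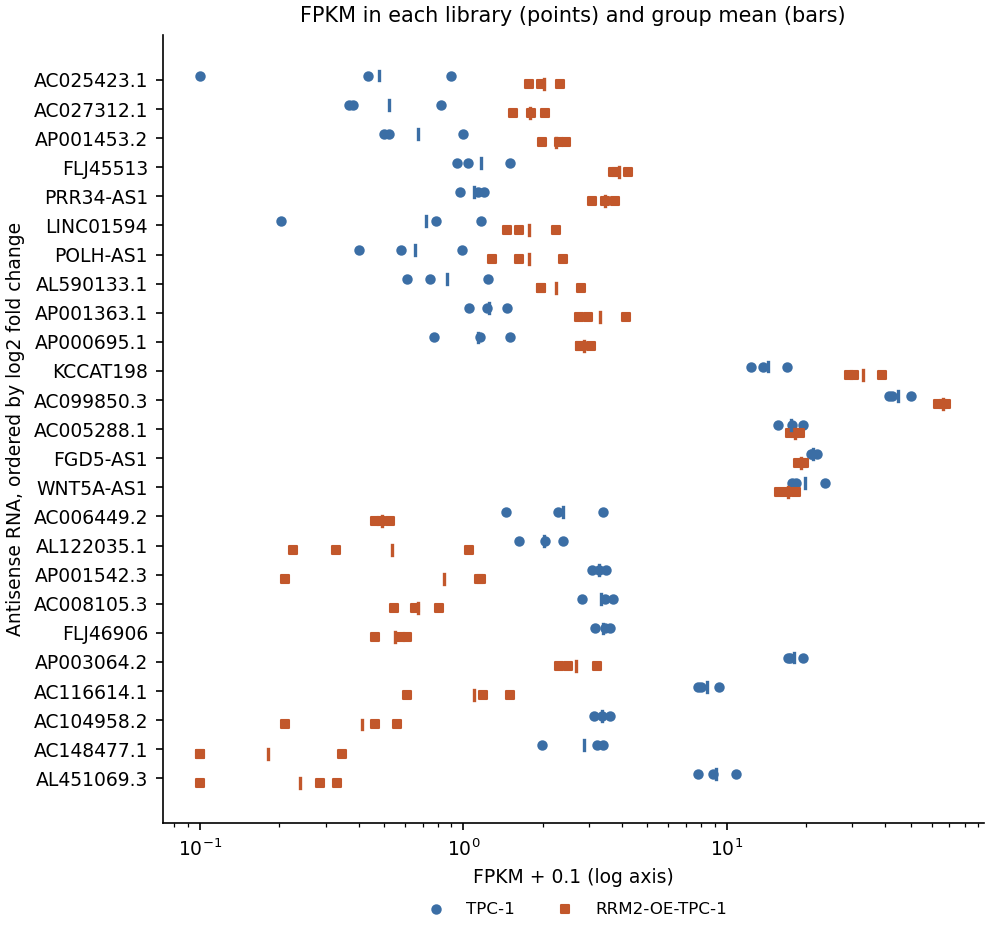
FPKM plus 0.1 (x axis, log scale) of the 10 largest rises, the 5 highest members and the 10 largest falls (y axis, ordered by log2 fold change), with a point for each library, blue for TPC-1 and orange for *RRM2*-OE-TPC-1, and a bar for each group mean. The largest rises and falls were picked among called members with no overlap between the groups, a condition that all 74 called members met. Most of the rises start near or under 1 FPKM.

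A protein-coding gene overlapped 370 of the 429 members on the opposite strand, and 53 members had several, of which the one with the longest overlap was taken. The member lay inside the gene in 193 pairs, head to head in 88, tail to tail in 72, and the gene lay inside the member in 17. The partner was tested in 287 pairs, with 278 distinct partners, of which 31 (11.2%, 22 lower) were called, close to the 11.5% of all genes. In 250 of the 287 the antisense RNA had the lower FPKM, with a median of 17.3% of the partner's level. Spearman's rho of the levels across pairs was 0.10 (n = 287). Members were chosen by level and 259 of the 429 lay between 1 and 2 FPKM, so these values depend on that narrow range.

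Since the choice by level bears on the rho of levels, it is not set against that of changes. Antisense RNA and partner had the same sign of change in 199 of 287 pairs (69.3%), and Spearman's rho of the log2 fold changes across pairs was 0.48 (Pearson's r 0.51). The points share their libraries and are no independent replicates. Both sides leaned to falls, with 245 of 382 tested members lower and a median of -0.10 for the distinct partners. This alone adds like signs, and no expected share was computed. For members inside the gene rho was 0.56 (n = 138, same sign in 77.5%), head to head 0.43 (n = 78, 66.7%) and tail to tail 0.38 (n = 64, 54.7%). The members inside a gene are those whose exons lie largely in its introns, where unspliced RNA of that gene is counted too, and what part it has was not tested. In pairs with no common exon base rho was 0.48 (n = 86), and in pairs with some it was 0.48 (n = 201).

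**Figure D4:**
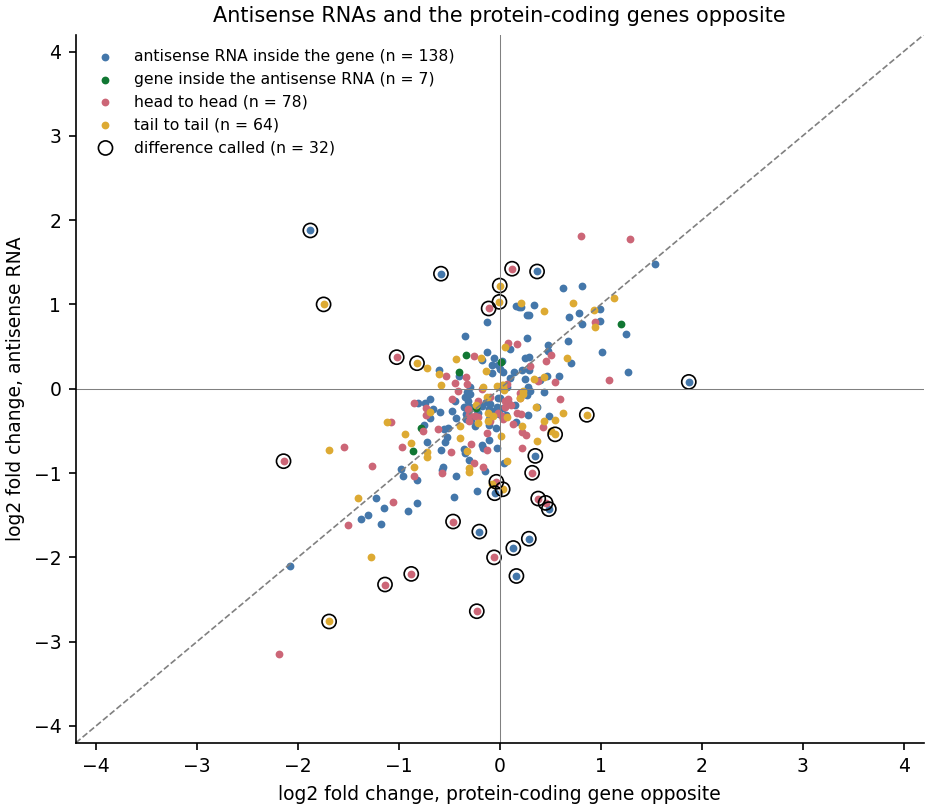
The log2 fold change of each antisense RNA (y axis) against that of the protein-coding gene opposite (x axis) for 287 pairs, coloured by arrangement, with the line of equal change dashed. The 32 circled pairs are those whose difference in log2 fold change was called, 21 below the line and 11 above it.

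In 18 pairs both genes were called, 13 of them lower and 3 higher in both. The genes opposite include a number with known roles. *PDCD4-AS1* (chr10:110869868-110872233, minus strand) lies head to head with *PDCD4*, which encodes an inhibitor of translation initiation, with 438 bases between the starts. It stood at 4.47, 5.50 and 5.16 FPKM in TPC-1 and at 2.31, 1.73 and 1.77 FPKM in *RRM2*-OE-TPC-1, and *PDCD4* at 23.8, 21.9 and 22.8 FPKM and 11.7, 10.2 and 10.9 FPKM. The log2 fold changes were -1.34 and -1.06, no exon base is shared, and the difference of -0.29 (SE 0.187) did not pass.

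*MELTF-AS1*, inside the melanotransferrin gene *MELTF*, went from 5.47, 4.65 and 5.78 FPKM to 2.07, 2.26 and 1.27 FPKM (-1.49), and *MELTF* fell by 1.31 on the log2 scale. *AC072022.2* fell by 1.62 head to head with *BCL6*, a transcriptional repressor (-1.5). *DM1-AS*, tail to tail with *DMPK*, the gene of a muscle kinase, fell by 1.29 beside -1.40 of *DMPK*, with which it shares 33.5% of its exon bases. *AP006284.1* (-2.10), with 45.4% of its exon bases shared with *LMNTD2*, fell with that gene (-2.08). *AL157871.2* (-1.55) fell with the tryptophanyl-tRNA synthetase gene *WARS* (-1.38). *AC105105.1* fell by 1.42 with *ALPK2* (-1.15), but 87.2% of its exon bases are shared and 328 are left to count. *AL591895.1* (-2.00) and the epoxide hydrolase gene *EPHX1* (-1.28), and *AC129510.1* (-1.29, with 67.6% of its exon bases shared and 180 left) and *CCDC57* (-1.23), were also lower together, as were the pairs with *SNTB1*, *SCGB1A1* and *FMNL1* above.

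Both rose in 3 pairs. *POLH-AS1* (chr6:43588230-43591362, minus strand), inside *POLH*, the gene of the translesion polymerase eta, stood at 0.303, 0.481 and 0.887 FPKM and at 1.19, 2.30 and 1.52 FPKM. *POLH* stood at 6.4, 6.79 and 7.14 FPKM and at 19.7, 18.8 and 21.0 FPKM. The log2 fold changes were 1.48 and 1.53. No exon base is shared, but *POLH-AS1* lies inside *POLH*, and its reads cannot be told apart from those of unspliced *POLH* RNA. *FLJ45513* went from 0.942, 0.849 and 1.4 FPKM to 3.69, 4.11 and 3.62 FPKM (1.77), head to head with the tachykinin gene *TAC4* (1.29). *AC067930.5* rose by 1.07 with *NAPRT* (1.13), an enzyme gene of NAD synthesis, and 72.9% of its exon bases are shared, with 318 left. Its call was lost when TPC-1 replicate 3 (0.91) or *RRM2*-OE-TPC-1 replicate 2 (0.95) was left out.

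In 2 pairs the genes were called in opposite directions. *AC027312.1*, with 6 exon blocks inside the potassium channel partner gene *KCNIP1*, stood at 0.267, 0.719 and 0.280 FPKM in TPC-1 and at 1.94, 1.71 and 1.44 FPKM in *RRM2*-OE-TPC-1. *KCNIP1* stood at 16.6, 16.7 and 16.3 FPKM and at 3.59, 5.09 and 4.76 FPKM. Their log2 fold changes were 1.88 and -1.88, and the difference was 3.76 (SE 0.358, limma adjusted p = 0.000449 over 457 pairs). *AL606489.1*, tail to tail with *PIK3C2B*, a class II phosphoinositide 3-kinase gene, stood at 3.58, 3.67 and 4.78 FPKM and at 7.40, 8.41 and 8.39 FPKM. *PIK3C2B* stood at 8.58, 8.98 and 9.10 FPKM and at 2.47, 2.49 and 2.79 FPKM. The changes were 1.00 and -1.75 and the difference 2.75 (SE 0.169, limma adjusted p = 9.64e-05). *AL606489.1* lay at the threshold of 1, and without TPC-1 replicate 1 or 2 or *RRM2*-OE-TPC-1 replicate 2 or 3 its log2 fold change was 0.93, 0.95, 0.97 and 0.97.

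The difference within the pair was called in 32 of 287 pairs (11.1%, 21 with the antisense RNA lower relative to its partner), beside 14.9% of all 457 pairs of an antisense and a protein-coding gene. The median difference was -0.080 for the members and -0.11 for all pairs. The antisense RNA alone was called in 33 pairs, and the difference passed in 19 of them.

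*FLJ46906* (chr6:138692548-138697288, plus strand) starts 23 bases from *NHSL1*, head to head. It stood at 3.34, 3.07 and 3.5 FPKM in TPC-1 and at 0.510, 0.478 and 0.360 FPKM in *RRM2*-OE-TPC-1, whereas *NHSL1* stood at 1.23, 1.01 and 1.18 FPKM and at 0.981, 0.942 and 0.955 FPKM. The difference was -2.41 (SE 0.170, limma adjusted p = 0.000137). At its low values in *RRM2*-OE-TPC-1, *FLJ46906* passed the filter through TPC-1 only, which favours a call. *PIK3CD-AS2*, inside *PIK3CD*, the gene of the delta catalytic subunit of phosphoinositide 3-kinase, went from 7.91, 8.36 and 7.28 FPKM to 2.28, 1.80 and 2.07 FPKM. *PIK3CD* stood at 17.8, 17.1 and 17.4 FPKM and at 19.2, 19.2 and 19.0 FPKM. The antisense RNA fell by 1.89 on the log2 scale, the coding gene had a log2 fold change of 0.13, and the difference was -2.02 (SE 0.175). *AC009005.1*, head to head with the basigin gene *BSG*, went from 4.36, 4.67 and 5.30 FPKM to 0.800, 1.48 and 1.16 FPKM, while *BSG* stood at 160 to 180 FPKM and 153 to 167 FPKM.

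*AL122035.1* (-2.22) and the folate enzyme gene *MTHFD1* (0.17) differed by -2.39. *AL359091.4* (-1.78) and the pseudouridine synthase gene *TRUB2* (0.29) differed by -2.07. In the other direction, *AL357992.1* (1.37) and the sulfotransferase gene *UST* (-0.58) differed by 1.95, with TPC-1 values of 1.38, 5.49 and 2.90 FPKM for *AL357992.1*. Without TPC-1 replicate 1 its log2 fold change was 0.88. *PRRT3-AS1* and *PRRT3* differed by 1.4, with log2 fold changes of 0.38 and -1.02. *AL590133.1* and the ceramide synthase gene *CERS2* (0.12) differed by 1.30.

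**Figure D5:**
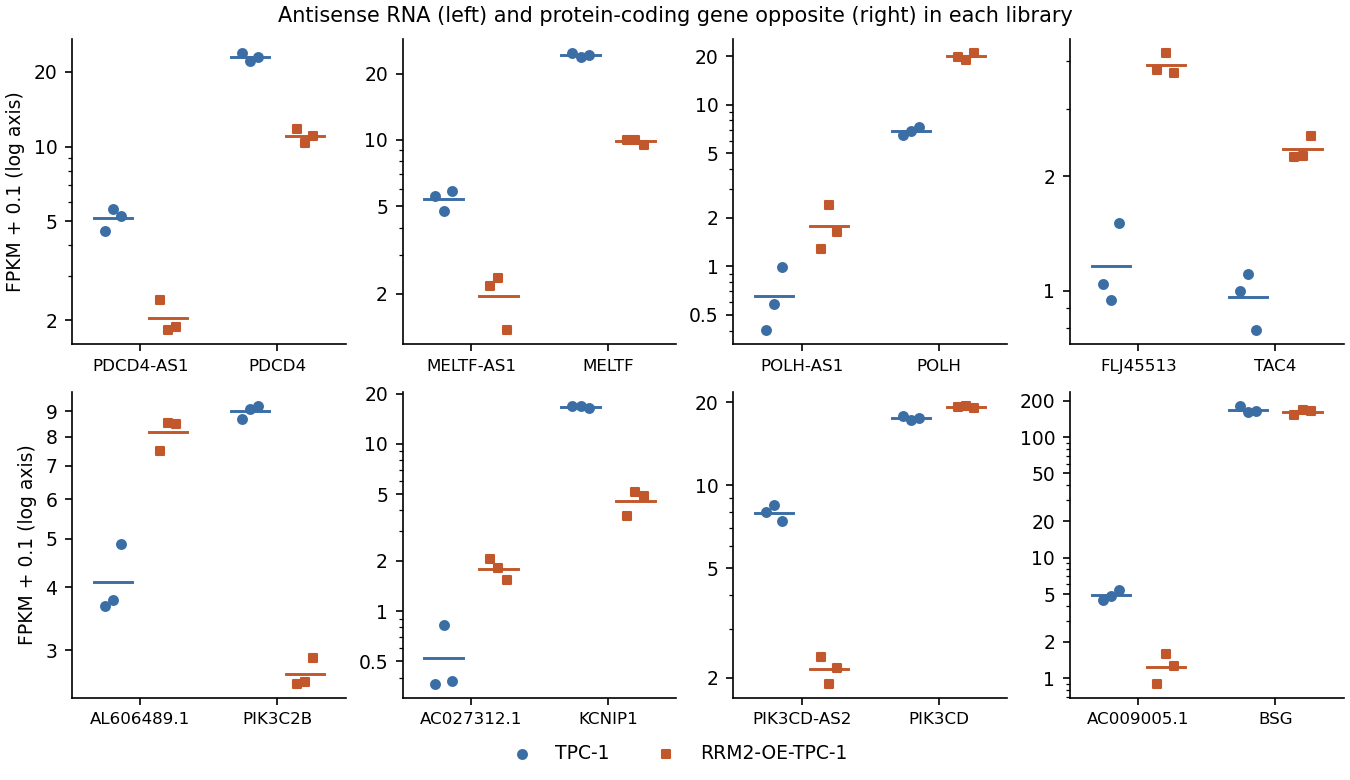
FPKM plus 0.1 (y axes, log scale, each panel with its own range) of 8 antisense RNAs (left in each panel) and the genes opposite (right), with a point for each of 3 TPC-1 libraries (blue) and 3 *RRM2*-OE-TPC-1 libraries (orange) and a line for each mean. In the upper row both genes moved the same way; in the lower row they moved in opposite directions (*AL606489.1*, *AC027312.1*) or the antisense RNA fell while the fitted change of the coding gene was 0.13 (*PIK3CD*) or -0.06 (*BSG*).

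A short list of antisense RNAs studied in cancer cells, written by hand and not complete, held 9 members. *GABPB1-AS1* (chr15:50354959-50372202, plus strand) stood at 3.35, 3.63 and 3.38 FPKM in TPC-1 and at 1.53, 1.55 and 1.57 FPKM in *RRM2*-OE-TPC-1, on 2934 and 1268 reads. It fell by 1.1 on the log2 scale (SE 0.0783), whereas *GABPB1*, which encodes a subunit of a transcription factor and starts 449 bases away, had a log2 fold change of -0.03, and the difference passed (-1.07). *DLGAP1-AS1* fell by 1.1, with -0.97 and -0.98 without TPC-1 replicate 1 or *RRM2*-OE-TPC-1 replicate 1, and *DLGAP1* was listed at 0. *PSMA3-AS1* had a log2 fold change of -0.54 and the proteasome gene *PSMA3* one of 0.55, and the difference of -1.09 (SE 0.164) passed. *THAP9-AS1* was at -0.72, with 7.48, 8.55 and 8.90 FPKM against 4.86, 5.06 and 5.01 FPKM, and *THAP9* at -0.13. *LOXL1-AS1* was at -0.40 and *LOXL1*, the gene of a lysyl oxidase, at -1.08. *FGD5-AS1*, *NNT-AS1*, *TMPO-AS1* and *SBF2-AS1* lay between -0.15 and 0.17.

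Promoters are printed for 3 called members with different base composition. They are RefSeq sequences on GRCh38.p14, 250 bases before to 50 after the start, 5′ to 3′, with starts at most 24 bases from the GENCODE start and no base in an exon of another gene. Capitals mark CpG dinucleotides.
PIK3CD-AS2, chr1:9687525-9687824, minus strand: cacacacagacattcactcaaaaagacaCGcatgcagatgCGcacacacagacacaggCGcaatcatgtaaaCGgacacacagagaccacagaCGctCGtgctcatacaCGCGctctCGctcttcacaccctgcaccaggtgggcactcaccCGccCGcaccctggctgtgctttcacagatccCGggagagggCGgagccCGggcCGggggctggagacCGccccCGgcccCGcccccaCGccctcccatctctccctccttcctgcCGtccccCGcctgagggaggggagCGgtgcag
FLJ45513, chr17:49845636-49845935, plus strand: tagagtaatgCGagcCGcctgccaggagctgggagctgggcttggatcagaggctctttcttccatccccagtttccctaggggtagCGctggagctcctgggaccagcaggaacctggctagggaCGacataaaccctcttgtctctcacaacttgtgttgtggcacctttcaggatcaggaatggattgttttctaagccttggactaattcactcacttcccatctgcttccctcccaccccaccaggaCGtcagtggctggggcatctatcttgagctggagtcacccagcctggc
LINC01594, chr2:108217792-108218091, minus strand: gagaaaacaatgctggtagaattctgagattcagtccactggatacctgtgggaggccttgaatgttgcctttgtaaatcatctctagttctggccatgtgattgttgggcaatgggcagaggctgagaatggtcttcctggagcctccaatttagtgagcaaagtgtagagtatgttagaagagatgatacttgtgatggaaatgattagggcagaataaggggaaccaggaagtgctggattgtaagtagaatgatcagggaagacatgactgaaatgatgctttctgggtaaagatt
*PIK3CD-AS2* has 22 CpG, *FLJ45513* 5 and *LINC01594* 0. By symbol, 99 of 429 members matched the RefSeq table, with 118 promoters. The median number of CpG was 23 there and 14 over all 35116 promoters. The sequence GGGCGG, on either strand, was in 54.2% of the members' promoters and 45.0% of all, CCAAT in 36.4% and 34.6%, TATAAA in 8.47% and 11.5%, CCGGAAGT in 3.39% and 4.14%, and GCATGCGC in 3.39% and 3.05%. Members with a RefSeq name are the better studied ones and need not stand for the rest.

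Genes of RNA breakdown and processing were described as a list of 34 symbols, of which 33 were in the table and tested. The list was written for the nuclear exosome and its adaptors, exonucleases, and enzymes that act on double-stranded RNA. By both thresholds 0 were called in limma. By adjusted p alone 19 were higher, 3 were lower and the median log2 fold change was 0.24, beside 67.6% of all genes passing either way and a median of 0.011. Of the exosome core, *EXOSC9*, *EXOSC3*, *EXOSC2*, *EXOSC4* and *EXOSC7* passed with log2 fold changes of 0.73, 0.65, 0.65, 0.38 and 0.28. *EXOSC6*, *EXOSC1*, *EXOSC5* and *EXOSC8* did not pass, at -0.17, -0.082, -0.081 and -0.018. The cofactor *MPHOSPH6* was at 0.73. The catalytic subunits *DIS3* and *EXOSC10* were at 0.46 and 0.41 and the helicase gene *MTREX* at 0.20. The cap-binding gene *NCBP1* was at 0.72 and the helicase gene *DHX9*, which unwinds double-stranded RNA, at 0.67. The 3 lower ones were *ADARB1*, an editing enzyme of double-stranded RNA, at -0.42, the poly(A)-binding gene *PABPN1* at -0.41 and the cytoplasmic exonuclease gene *XRN1* at -0.36. The part of these changes in those of the antisense RNAs was not tested.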

How the data were processed

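RNA of 3 TPC-1 and 3 *RRM2*-OE-TPC-1 libraries was sequenced. The methods state poly(A) selection, whereas the labels state removal of ribosomal RNA and RNase R treatment. The kit was directional. The authors aligned reads with HISAT2 2.0.5, counted them with featureCounts 1.5.0 (versions and build GRCh38.p14 from the submitters' processing notes) and deposited FPKM values, which divide counts by exon length and depth. Gene positions were those of GENCODE 29. FPKM times length gave whole reads within 0.05 for 100% of values, and these gave the depths.

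DESeq2 was not used, since the deposited unit is FPKM. Log2(FPKM + 0.1) was fitted with limma 3.58.1 (R 4.3.3, eBayes with trend) over 13621 genes with 0.5 FPKM and 10 reads in 3 libraries, with Benjamini-Hochberg adjustment. Pairs were tested on the difference of log2 values in each library, over 457 pairs. P-values measure the spread between these libraries. The procedure was also run on simulated reads with the same spread beyond counting for every gene. That run cannot show how the procedure does on genes that vary more, and no call rests on it. Tables were handled with Python 3.11.15. The members and lists were chosen with earlier results of these data known. The members named were the 10 largest called changes each way with no overlap between the groups, and the 5 highest. Others were 3 on each side of the threshold and those with a called partner. The 5 largest called differences each way and a list of well studied RNAs were added. *MDM2*, the other partners, *AC006064.4* and *DDIT4-AS1* were named after their values were seen. Some genes and sequences that the rules cover are not reported here. Alternatives are given in the closing section.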

Additional observations from a re-analysis of the deposited data

How the results depend on the processing

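Of 382 tested members, 74 were called. The count was 80 with scaling to totals of recovered reads (all genes 12.0%), 75 with median-of-ratios factors (11.5%), 86 with a pseudocount of 0.01 (12.7%) and 87 with limma-voom on recovered reads (13.2%). It was 70 of 429 without the filter (7.37%) and 74 of 381 with an FPKM minimum of 1 (10.6%). It was 75 to 80 with 1 library left out, and 54 members were called in every such fit. With a pseudocount of 1 it was 29 (5.26%), since that pseudocount is as large as the levels of many members, and 202 by adjusted p alone (67.6%). Members set at a mean of 2 FPKM gave 33 of 167, and at 0.5 FPKM 114 of 578. Of 287 pairs, 32 differences were called. The number was 18 with a pseudocount of 1, 16 of them among the 32, 63 by adjusted p alone, and 30 to 35 with 1 library left out. The median of members was between -0.29 and -0.16 in all settings, while that of all genes was between -0.048 and 0.029.

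Same-numbered libraries did not deviate together (correlations -0.011, -0.0060 and -0.055), so the numbers were not taken as pairs. With the replicate block, 74 members and 31 differences were called.

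Of the named members, the sign turned only in those near 0. *AC005288.1* (0.047) was at -0.011 with scaling to totals, -0.0095 with limma-voom and -0.033 without TPC-1 replicate 1, in a range of -0.033 to 0.12 with 1 library left out. *NNT-AS1* (-0.0036) was at 0.019 and 0.030 without TPC-1 replicate 2 or 3 and at 0.064 without *RRM2*-OE-TPC-1 replicate 3, in a range of -0.067 to 0.064. The causes were not tested. *AL606489.1* was at 0.94 with scaling to totals and 0.96 with limma-voom. Depth limits the low members: the median is 201 reads over 6 libraries.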
